A study of Mus musculus with 32 samples.

Results

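Among the genes measured in a time course of GATA6 induction, 232 were at their lowest after 96 h, clearly below every earlier time point. They were selected on measured values: the 4 deposited values of each time point were averaged, and a row with a gene symbol was kept where its mean at 0 h was at least 6 and its mean at 96 h lay at least 1.2 below the mean at each of the other 7 time points, on the log2-like scale of the table. The table holds 54233 rows, of which 25093 carry a symbol, and 9449 of those reach the 0 h floor, so that the 232 genes are 2.46% of the rows that could qualify. A further 16 rows without a symbol met both thresholds and were left out. Because the rule compares 96 h with every other time point, all values at 96 h below are given as a description without a test, and tests are given only between time points from 0 to 48 h. All 232 genes passed the filter on low counts used for those tests, and 226 of them are protein-coding.

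RNA-seq was performed on KH2 mouse embryonic stem (mES) cells that carry a single-copy transgene in which doxycycline (Dox) switches on FLAG-tagged GATA6, together with DsRed2, from a bidirectional promoter. Cells at 0 h were uninduced and had been kept in 2i/LIF, a medium that holds mES cells in the naive state, whereas induced cells received Dox at 1 µg/ml in serum with LIF for up to 12 h and then serum without Dox, so that GATA6 and the medium changed together and their effects cannot be told apart. Samples were taken at 0, 2, 4, 8, 16, 24, 48 and 96 h, with 4 replicates at each time (32 samples). A single line was used. The study states in general that replicates were made independently, while the labels do not say what separates them, and p-values measure the spread between these samples. Reads assigned to genes numbered between 3190108 and 12301732 per sample. Reads of the transgene were absent in the 0 h samples and reached a mean of 618 normalized counts at 2 h, while the row of Gata6 itself, whose coding sequence the transgene shares, went from 0.371 at 0 h to 2067 normalized counts at 96 h. Summed over 10 primitive endoderm markers, levels were 629 to 906 normalized counts at 0 h and 202100 to 278833 at 96 h. For 6 mES cell markers the sum was 27924 to 29355 before induction. It was 8306 to 9378 after 48 h and 3345 to 4009 after 96 h. Of these 6 markers, Pou5f1, Sox2, Nanog and Esrrb met the rule. The fall of the sum at 96 h thus follows in part from the selection. From 48 to 96 h the mean of Pou5f1 went from 6166 to 2051. Among the markers that did not meet the rule, Klf4 went from 1135 to 1005 and Zfp42 from 825 to 442. Replicates 1 and 2 deviated together from the mean of their time point, and so did replicates 3 and 4 (mean r of the deviations across genes 0.196 within these sets and -0.196 between them), and for some genes with a wide gap between the sets the values are given separately.

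Mouse embryonic stem cells are kept in an undifferentiated state by a network of transcription factors around OCT4, SOX2 and NANOG, and naive cells also rely on factors such as ESRRB and TFCP2L1. In the blastocyst, GATA6 opposes NANOG in the inner cell mass, where cells become either epiblast, which goes on to form the embryo proper, or primitive endoderm (PrE), which gives rise to the yolk sac endoderm. Forced expression of GATA6 is known to turn mES cells into cells that resemble extraembryonic endoderm. In a bulk culture, fewer cells that keep the undifferentiated state and less RNA of a gene in each cell cannot be told apart, and this holds for every value below.

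The loss of these genes was not limited to the time after 48 h. The median gene had 58.8% of its 0 h level at 24 h, 29.2% at 48 h and 7.14% at 96 h. At 48 h, 167 of the 232 genes (72.0%) had a level at least 2-fold below that at 0 h, 65 (28.0%) lay within 2-fold of it, and none was 2-fold above. The range at 48 h ran from 0.969% of the 0 h level (Accsl, an aminocyclopropane carboxylate synthase-like gene) to 169% (4930461G14Rik). The step from 48 to 96 h was nevertheless the largest single fall for 182 genes, followed by the step from 24 to 48 h for 34. The sampling interval from 48 to 96 h was also the longest. The median gene lost 52.0% of its total fall, on the deposited scale, after 48 h. A description as genes lost only after 48 h would thus apply to at most the 65 genes that were within 2-fold of the 0 h level at 48 h.

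**Figure D1:**
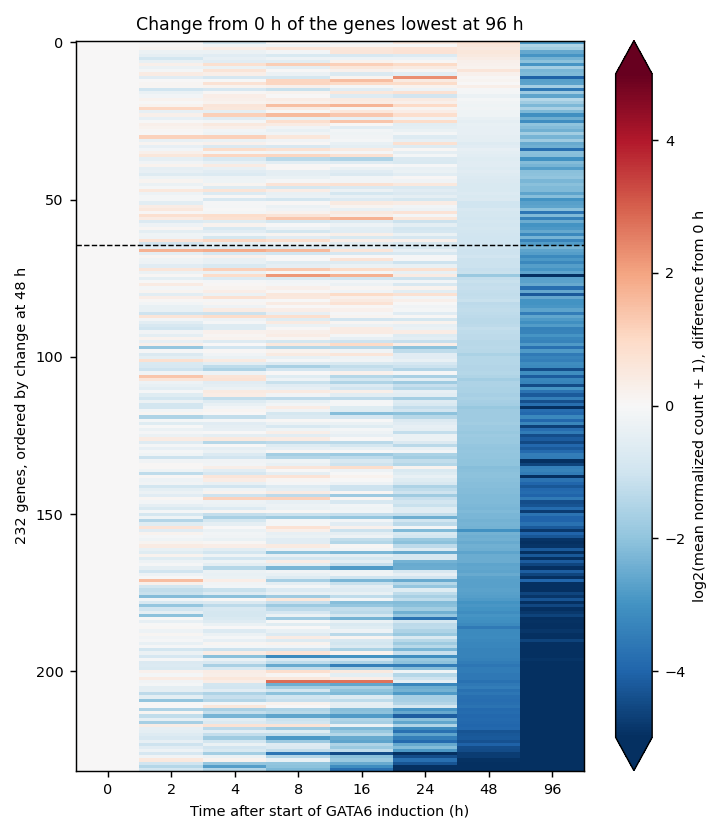
Change from 0 h of the 232 genes (rows, ordered by their log2 fold change at 48 h) at each time point (columns, h); color gives the difference of log2(mean normalized count + 1) from 0 h and is cut at 5 in either direction. The 65 genes above the dashed line were within 2-fold of the 0 h level at 48 h, and the 167 below it were at least 2-fold lower by then.

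By the time at which the mean was highest, 114 genes were highest before induction, while 21, 30, 33, 22, 7 and 5 genes peaked after 2, 4, 8, 16, 24 and 48 h, respectively. For 122 genes the mean was lower at each step from 8 h onward than at the step before. The second lowest time point was 48 h for 189 genes. At 96 h, every sample lay below every sample of all other time points for 225 genes, a separation the rule itself favors. The exceptions included Sec14l4, Hydin, Il6ra, Oasl1, Atp2a3 and Accsl. At 96 h, 155 genes still had a mean of at least 10 normalized counts, and 30 of these had at least 100. The other genes had a mean below 10, the level used in the filter on low counts. At most 3 reads in each 96 h sample were left for 18 genes.

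Before 96 h, the genes were called lower far more often than higher (limma on log2(normalized count + 1), with calls at an FDR below 0.1 and a 4-fold change). At 2 h against 0 h, 2 of the 232 genes were lower, Csrnp3 and Ccnjl, against 0.348% of the 15227 genes tested, and 0 were higher, against 2.00%. At 8 h, 10 were lower (background 1.31%) and 2, Lefty2 and Calcoco2, were higher (background 3.40%). At 24 h, 41 were lower than at 0 h (17.7% of the genes, background 4.34%) and 1, Tgfbi, was higher (background 4.85%). At 48 h, 98 were lower than at 0 h (42.2% of the genes, background 7.09%) and 0 were higher (background 8.48%). Between 24 and 48 h alone, 22 were lower (9.48%, background 1.41%) and 0 were higher (background 2.51%). Among all genes that reach the 0 h floor, which is the fairer comparison because a silent gene cannot fall, 5.70% were lower at 48 h than at 0 h. Higher calls were also rarer among those genes, at 0.540%, 0.677%, 1.07% and 2.73% after 2, 8, 24 and 48 h against 0 h and 0.444% between 24 and 48 h. Read against these shares, the counts of 0 to 2 higher genes at 2 h, 8 h, 24 h and between 24 and 48 h lie near the background. The median log2 fold change of the 232 genes against 0 h was -0.24, -0.27, -0.78 and -1.73 after 2, 8, 24 and 48 h, beside a median of all genes tested between -0.03 and 0.01. For the counts of 0, an unadjusted p of 0.05 with any fold change was passed by 20 genes higher at 2 h than at 0 h, by 4 at 48 h than at 0 h and by 6 at 48 h than at 24 h, and limma-voom on the whole reads also called 0 in each. With a 2-fold threshold in place of 4-fold, 167 of the genes were lower at 48 h than at 0 h and 0 were higher. No share of all genes is given beside these counts or those at an unadjusted p. The rule bears on these counts. A gene that had fallen close to its final level by 48 h could not be selected. Every selected gene also lies at least 1.2 lower at 96 h than at 0 h, which favors lower calls before 96 h over higher ones. The excess of lower calls over the background thus follows in part from the selection.

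**Figure D2:**
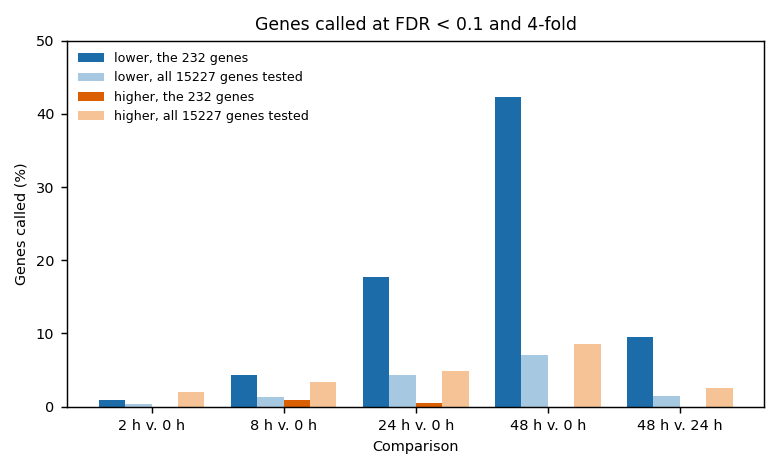
Share of genes (y axis, %) called lower or higher in 5 comparisons of time points (x axis), for the 232 genes and for all 15227 genes tested. At 48 h against 0 h, 42.2% of the 232 genes were called lower against 7.09% of all genes, and none was called higher. The selection of genes that are lower at 96 h than at 0 h itself favors lower calls.

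Replicates 1 and 2 and replicates 3 and 4 changed in the same direction from 0 to 48 h for most genes. Within each set, 208 genes were lower at 48 h than at 0 h in both, 4 were higher in both and 20 moved in opposite directions, with a median log2 difference of -1.49 in replicates 1 and 2 and -1.93 in replicates 3 and 4. A 4-fold lower mean at 48 h than at 0 h was seen for 89 genes in the first set, 111 in the second and 81 in both. The genes were chosen on all 4 replicates as lower at 96 h than at 0 h, which favors such agreement in direction. At 0 h the sets stood at least 2-fold apart for 28 of the genes (12.1%), beside 9.02% of all genes tested. The widest such gap was that of Calcoco2, an autophagy receptor, with 152, 136, 1294 and 1213 normalized counts before induction in replicates 1 to 4. When the rule was applied to replicates 1 and 2 alone it kept 250 genes, of which 248 were also lowest at 96 h in replicates 3 and 4, with a median distance of 1.33 there and 146 beyond the 1.2 required. Applied to replicates 3 and 4 it kept 240, of which 236 were lowest at 96 h in the other set and 150 kept the full distance. Except for the gaps at 0 h, shares of all genes are not given beside these counts.

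**Figure D3:**
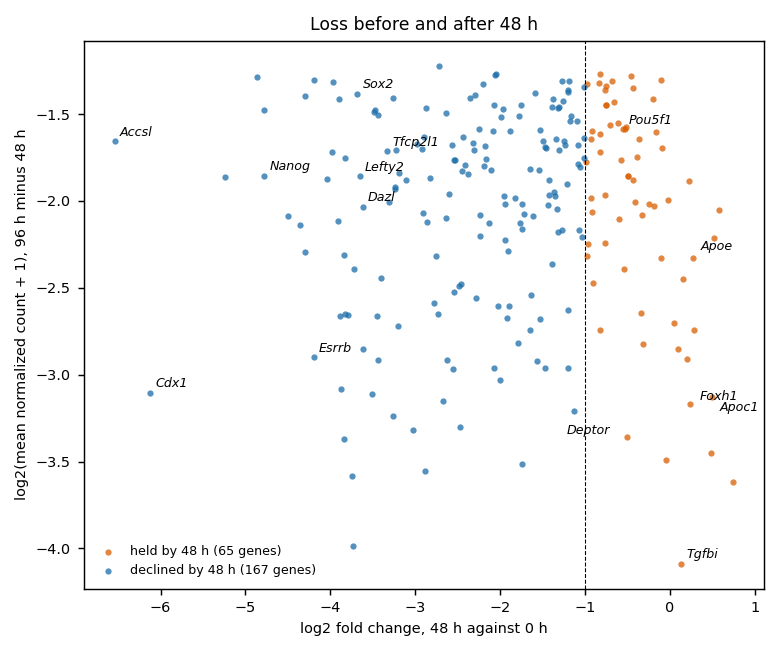
Each point is one of the 232 genes, with its log2 fold change at 48 h against 0 h (x axis) and the difference of log2(mean normalized count + 1) between 96 and 48 h (y axis); the dashed line marks a 2-fold loss by 48 h. Pou5f1, Apoe, Foxh1 and Deptor lie to the right of the line and Nanog, Esrrb, Sox2 and Cdx1 far to its left, although all of them were lowest at 96 h.

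Of the pluripotency factors, OCT4 and the others followed different courses. Pou5f1, which encodes OCT4 and lies at chr17:35506018-35510772 (GRCm38), had 10821, 10038, 8102 and 7457 normalized counts before induction, 5665, 5362, 5459 and 5228 after 24 h and 6413, 6419.7, 5971 and 5859.9 after 48 h. After 96 h, Pou5f1 had 2319, 2294, 1769 and 1824. The 24 and 48 h samples lay below all those at 0 h and above all those at 96 h. For 48 h against 0 h, its log2 fold change was -0.55 (SE 0.10, adjusted p = 2.12e-05) and that at 48 h against 24 h was 0.18 (SE 0.10, adjusted p = 0.134), neither of which passed the 4-fold threshold. Pou5f1 kept 67.7% of its 0 h mean at 48 h and 22.5% at 96 h.

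Sox2 (chr3:34650405-34652461), the partner of OCT4 on DNA, was lost much earlier. It had 2297, 2010.3, 1664 and 1715 normalized counts before induction and 177, 251, 105 and 102 after 48 h. After 96 h, Sox2 had 69, 69.4, 62.8 and 39.7. Its mean had already gone from 1922 before induction to 351 within the first 8 h. Its log2 fold change was -2.45 (SE 0.21, adjusted p = 4.43e-11) at 8 h and -3.68 (SE 0.21, adjusted p = 6.43e-16) at 48 h, so that Sox2 fell within the first 8 h, with no overlap between the groups. Between 24 and 48 h the difference of -0.39 (SE 0.21, adjusted p = 0.117) did not pass the test.

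Nanog (chr6:122707489-122714633), the homeodomain factor that GATA6 opposes in the blastocyst, was also lost early. It had 5002, 4657, 6803 and 7037 normalized counts before induction, 204, 219, 116 and 116 after 24 h and 308, 262, 165 and 144 after 48 h. After 96 h, Nanog had 73.2, 81, 42.7 and 43.5. Its log2 fold change was -3.63 (SE 0.22, adjusted p = 3.97e-14) at 8 h and -4.78 (SE 0.22, adjusted p = 8.61e-18) at 48 h. The 24 and 48 h samples overlapped across the sets, with a log2 fold change of 0.42 (SE 0.22, adjusted p = 0.12) between them that did not pass the test. Within each set both 48 h samples were above both 24 h samples, with a change of 0.42 in replicates 1 and 2 and 0.41 in replicates 3 and 4. The 96 h samples lay below those of both times. Nanog thus fell early and was lower still at 96 h.

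Esrrb (chr12:86361117-86521628), an orphan nuclear receptor, and Tfcp2l1 (chr1:118627945-118685168), a CP2-family factor, are both part of the naive network. Esrrb had 5869, 6451, 7383 and 7576 normalized counts before induction and 445, 426, 325 and 302 after 48 h. After 96 h, Esrrb had 66.8, 58.9, 37.7 and 34. Esrrb fell by 48 h, with a log2 fold change of -4.20 (SE 0.16, adjusted p = 1.13e-19), and kept 0.724% of its 0 h mean at 96 h. Tfcp2l1 had 7069.5, 8883, 13171 and 13406 before induction and 1253, 1255, 805 and 843 after 48 h. After 96 h, Tfcp2l1 had 346, 332, 316 and 270.4. Tfcp2l1 fell by 48 h with a log2 fold change of -3.33 (SE 0.18, adjusted p = 2.94e-16), and its groups did not overlap. Nr0b1 (DAX1), a repressor that binds OCT4 and NANOG targets, had means of 803 ± 112 normalized counts (SD, n = 4) before induction, 36.1 ± 8.9 after 24 h, 28.7 ± 7.14 after 48 h and 9.66 ± 5.4 after 96 h, and fell by 4.79 on the log2 scale at 48 h (SE 0.24, adjusted p = 2.89e-17).

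**Figure D4:**
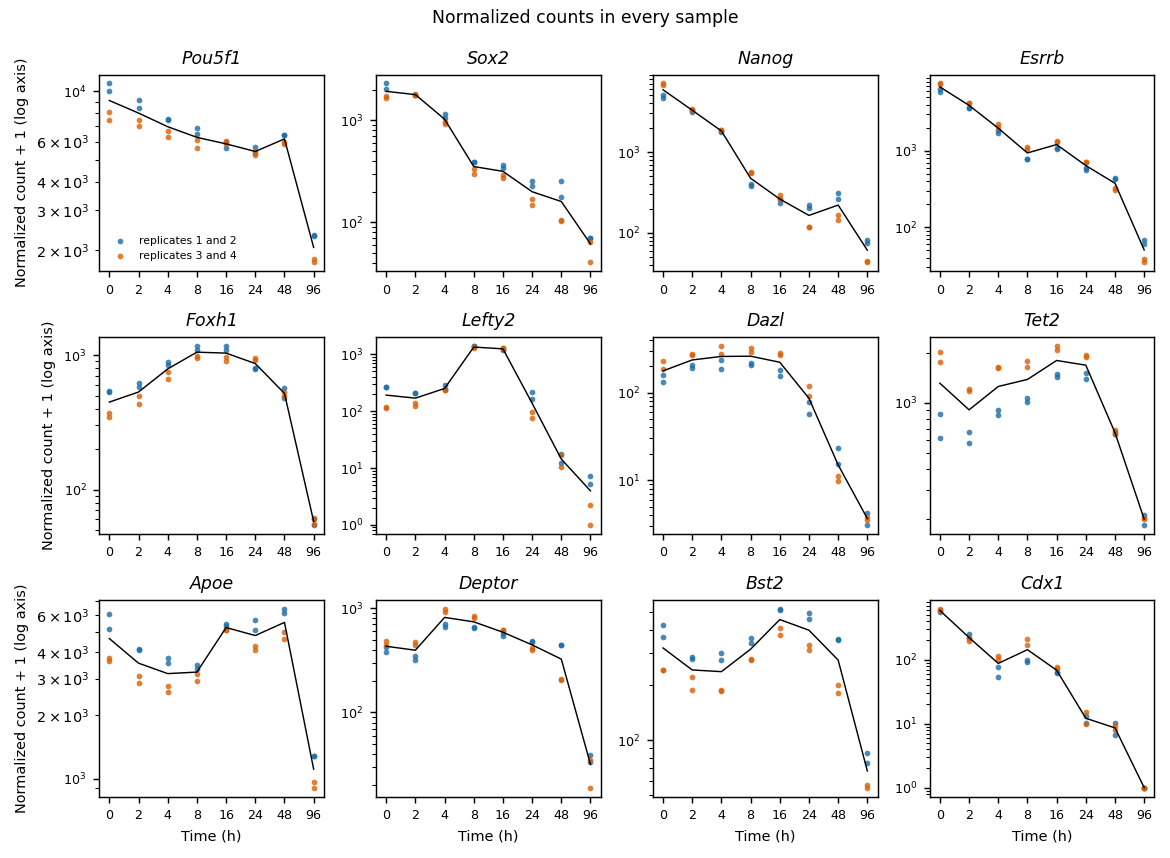
Normalized count + 1 (y axis, log scale) of 12 of the genes in every sample at each time point (x axis, h, not to scale); points are samples, colored by replicate set, and lines join the means of the 4 replicates. Pou5f1 and Apoe stay within 2-fold of the 0 h mean until 48 h, Nanog, Sox2, Esrrb and Cdx1 are lost from the first hours, Lefty2 peaks at 8 h, and all 12 are lowest at 96 h.

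The list of naive pluripotency factors held 14 genes, all measured, of which these 4 (Nanog, Esrrb, Tfcp2l1 and Nr0b1) met the rule, and 9 of the 14 were called lower and 0 higher at 48 h than at 0 h, with a median log2 fold change of -3.77. Counts of calls for this and every list below stand beside 7.09% lower and 8.48% higher among all genes tested at 48 h. Those 2 shares do not apply to counts at an unadjusted p, for which no share of all genes is given. Of all rows that reach the 0 h floor, 2.46% met the rule. In short lists, a count of 1 or 2 can lie near these shares. Of the 14, 2 were higher at an unadjusted p of 0.05 and any fold change, and limma-voom also called 0. Of the 22 general pluripotency genes 6 met the rule (Pou5f1, Sox2, Gdf3, Tcl1, Pecam1 and Alpl), and over the whole list 6 were called lower and 1 higher at 48 h, with a median of -0.62. Alpl, the tissue-nonspecific alkaline phosphatase by which mES colonies are stained, was at 2169 ± 491 normalized counts before induction, 682 ± 152 after 24 h, 157 ± 44 after 48 h and 24 ± 14 after 96 h. It was one of the 22 genes that fell between 24 and 48 h, with a log2 fold change of -2.13 (SE 0.28, adjusted p = 3.33e-07). Of the 12 formative epiblast genes, those of the state between naive and primed pluripotency, only Etv5 met the rule, and 2 of the 10 tested were called lower and 2 higher at 48 h. Etv5, an ETS factor downstream of FGF signaling, had 1902, 2213, 2084 and 2102 normalized counts before induction and 338, 367, 223 and 226 after 48 h. After 96 h, Etv5 had 88.1, 84.1, 115 and 128. Etv5 fell by 48 h, with a log2 fold change of -2.88 (SE 0.14, adjusted p = 4.54e-17).

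A longer list of epiblast genes and one of PrE genes are those of the study, whose methods describe a comparison of single cells of the embryo. Of the 221 epiblast genes 219 were measured and 205 reached the 0 h floor, and 27 of these (13.2%) were among the 232 genes, beside 2.46% of all rows that reach the floor. Of the 579 PrE genes 572 were measured and 467 reached the floor, and 0 were among the 232 genes. At 48 h, 76 of 215 tested epiblast genes were called lower than at 0 h and 7 higher, whereas 0 of 572 PrE genes were lower and 204 higher. At an unadjusted p of 0.05 and any fold change 17 PrE genes were lower, and limma-voom also called 0. Both lists and the others used here were chosen with results of these data known, and no test was made of the overlaps.

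The promoters of Nanog and Apoe are shown because these genes stand at opposite ends of the selected genes. Nanog was lost from the first hours and Apoe not before 48 h. Both carry a match to a short SOX element close to the start of transcription, while the bases on either side of it differ. Shown are the 250 bases before the start of each gene on its own strand, from RefSeq on GRCm38.p6. The element (CATTGT, or ACAATG on the other strand) is in capitals. The stretch of Nanog is chr6:122707239-122707488 on the plus strand, and the element begins 67 bases before the start. The stretch of Apoe is chr7:19699189-19699438 on the minus strand, and the element begins 144 bases before the start.
Nanog: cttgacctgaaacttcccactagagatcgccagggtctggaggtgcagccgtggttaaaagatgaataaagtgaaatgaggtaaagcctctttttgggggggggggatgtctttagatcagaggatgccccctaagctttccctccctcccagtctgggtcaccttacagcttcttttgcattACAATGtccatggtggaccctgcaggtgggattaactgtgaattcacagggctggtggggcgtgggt
Apoe: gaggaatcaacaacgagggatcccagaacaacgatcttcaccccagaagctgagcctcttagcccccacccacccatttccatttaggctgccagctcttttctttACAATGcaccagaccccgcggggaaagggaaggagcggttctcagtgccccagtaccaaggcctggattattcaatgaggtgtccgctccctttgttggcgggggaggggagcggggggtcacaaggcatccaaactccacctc
The element was present in 10.7% of the same 250 bases of all 32851 promoters in the table, so its presence is common. Whether it is bound in either stretch was not examined here. The octamer ATGCAAAT was not among these letters in either stretch, which does not speak to variants of it or to binding of OCT4. Only 171 of the 232 genes (73.7%) matched a promoter, which is too few for a comparison of base composition or motifs over the whole group, and none is given.

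The Nodal signaling genes followed different courses. Foxh1, the DNA-binding partner of SMAD2 and SMAD3, had 541, 529, 347 and 368 normalized counts before induction, 799.9, 792, 946 and 921 after 24 h and 482, 567, 492 and 533 after 48 h. After 96 h, Foxh1 had 59.4, 53.6, 54 and 60.5. The 24 h samples were above those at 0 h, those at 48 h overlapped with 0 h, and those at 96 h were far below. The log2 fold changes of Foxh1, 0.98 (SE 0.13, adjusted p = 1.24e-07) at 24 h and 0.24 (SE 0.13, adjusted p = 0.0925) at 48 h, were both short of 4-fold. Lefty2, a feedback inhibitor of Nodal, rose before it was lost. It had 264, 269, 117 and 113 before induction, 1388, 1383, 1324 and 1276 after 8 h, 162, 216, 75.1 and 94.6 after 24 h and 17, 11.3, 15.8 and 9.29 after 48 h. After 96 h, Lefty2 had 6.37, 4.21, 1.26 and 0. The log2 fold change was 2.93 (SE 0.39, adjusted p = 4.1e-07) at 8 h against 0 h and -3.18 (SE 0.39, adjusted p = 8.54e-08) at 48 h against 24 h, so that Lefty2 rose by 8 h and fell again between 24 and 48 h. Gdf3, a TGF-beta family ligand encoded next to Nanog, had 1649, 1342, 1395 and 1399.5 before induction and 428, 420.2, 564 and 550.1 after 48 h. After 96 h, Gdf3 had 70, 69.4, 55.2 and 60.5. These groups did not overlap, but the log2 fold change of -1.57 (SE 0.09, adjusted p = 7e-16) at 48 h was short of 4-fold. Of the 16 genes on the Nodal list, these 3 met the rule, 3 were called lower and 1 higher at 48 h, and their median of -0.11 lay near that of all genes. Nodal itself had means of 548 normalized counts before induction, 22.7 after 48 h and 10.5 after 96 h, a last step too small for the rule.

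Of 20 genes that respond to or limit Wnt signaling, Axin2, Cdx1 and Tnfrsf19 met the rule, and 10 of the 19 tested were called lower and 3 higher at 48 h, with a median log2 fold change of -2.24. Axin2, the common negative feedback gene of the pathway, had 643, 865, 532 and 563 normalized counts before induction, 471, 454, 292 and 278 after 24 h and 121, 126, 82.7 and 86.7 after 48 h. After 96 h, Axin2 had 36.1, 42.1, 35.1 and 32.1. Axin2 fell by 48 h, with a log2 fold change of -2.63 (SE 0.18, adjusted p = 4.36e-14), most of it after 24 h. Its mean had already gone from 651 before induction to 337 after 2 h, and it stood at 534 after 4 h. Cdx1, a caudal-type homeobox gene, had 603, 553, 580.3 and 619.5 before induction and 9.42, 5.65, 7.04 and 8.26 after 48 h. After 96 h, Cdx1 had 0 in all 4 samples. It fell by 48 h, by 6.12 on the log2 scale (SE 0.22, adjusted p = 1.86e-20). Tnfrsf19 (TROY), a receptor of the TNF family, was at 210.0 ± 47.6 before induction, 54.6 ± 4.49 after 2 h, 26.8 ± 2.09 after 48 h and 7.98 ± 1.77 after 96 h. Il6ra, the receptor of interleukin 6 and the only one of 12 genes of the LIF and IL6 family that met the rule, had means of 228 normalized counts before induction, 669 after 2 h, 71.5 after 8 h and 33.5 after 48 h, and its 96 h samples overlapped with other time points. From 48 to 96 h it changed by -0.37 in replicates 1 and 2 and by -3.12 in replicates 3 and 4 on the log2 scale, so that its last fall rests mainly on the second set. Of the 12 genes of the LIF and IL6 family 1 was called lower and 2 higher at 48 h, beside 7.09% and 8.48% of all genes tested.

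Of 40 germline genes 19 reached the 0 h floor, and 8 of them met the rule (Tdrd12, Dnah8, Tex14, Dazl, Stk31, Dmrt1, Rec8 and Piwil2), beside 2.46% of all rows that reach the floor. Over the 37 tested, 13 were called lower and 1 higher at 48 h, with a median of -0.75. Dazl, an RNA-binding protein of germ cells, had 131, 158, 186 and 229 normalized counts before induction, 56.5, 76.3, 118 and 89.7 after 24 h and 14.1, 22.6, 8.8 and 10.3 after 48 h. After 96 h, Dazl had 3.18, 2.1, 2.51 and 2.84. Its means stood between 221 and 259 from 2 to 16 h, and Dazl fell between 24 and 48 h with a log2 fold change of -2.56 (SE 0.25, adjusted p = 1.57e-09). Tex14, needed for the intercellular bridges of germ cells, had 438, 425, 384 and 351 before induction, 316, 309.8, 154 and 166 after 24 h and 64.1, 58.4, 30.8 and 24.8 after 48 h. After 96 h, Tex14 had 10.6, 13.7, 11.3 and 8.51. Its log2 fold change at 48 h against 24 h was -2.41 (SE 0.22, adjusted p = 4.33e-10). Tdrd12, a Tudor-domain protein of the piRNA pathway, fell between these times as well, with a log2 fold change of -2.22 (SE 0.24, adjusted p = 7.06e-09). The same held for Dmrt1, a regulator of testis and germ cell fate, with -2.15 (SE 0.35, adjusted p = 7.35e-06). Dnah8, an axonemal dynein heavy chain, had means of 585 before induction, 255 after 4 h, 40 after 48 h and 3.84 after 96 h. Piwil2 (MILI), a PIWI protein that binds piRNAs, differed from these in having means of 136 before induction, 441 after 16 h, 117 after 48 h and 28 after 96 h, so that its 48 h level was close to that at 0 h (log2 fold change -0.19 (SE 0.17, adjusted p = 0.337)).

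Of 8 genes of the subcortical maternal complex, which is known from oocytes and early embryos, Ooep and Khdc3 met the rule, and 2 of the 5 tested were called lower and 1 higher at 48 h. Ooep had 341, 251, 354 and 346 normalized counts before induction and 178, 183, 145 and 153 after 48 h. After 96 h, Ooep had 31.8, 34.7, 27.6 and 41.6. Khdc3 (FILIA) had means of 288 before induction, 459 after 8 h, 129 after 24 h, 27.7 after 48 h and 4.27 after 96 h. Khdc3 fell between 24 and 48 h, with a log2 fold change of -2.25 (SE 0.24, adjusted p = 4.79e-09), whereas the 48 h samples of Ooep lay below all its 0 h samples by a log2 fold change of -0.96 (SE 0.14, adjusted p = 4.88e-07), short of 4-fold. Tet2, a dioxygenase that oxidizes 5-methylcytosine, was the only one of 13 DNA methylation and demethylation genes that met the rule, and 2 of these were called lower and 3 higher at 48 h. Tet2 had 611, 851, 1751 and 2019 normalized counts before induction, 1387, 1512, 1891 and 1924 after 24 h and 644, 663, 653 and 682 after 48 h. After 96 h, Tet2 had 185, 210.4, 199.6 and 204. The 2 sets differed at 0 h, with replicates 3 and 4 higher, so that the change from 0 to 48 h was -0.14 in replicates 1 and 2 and -1.49 in replicates 3 and 4 on the log2 scale, but the sets were together at 48 and 96 h. None of the 13 genes of the PRC1.6 complex, a repressor of germline genes, met the rule, which for the 12 above the 0 h floor is near the 2.46% of all rows. There, limma and limma-voom both called 0 of them at 48 h in either direction, with a median of -0.15. At an unadjusted p of 0.05 and any fold change, 7 of these were lower and 2 higher.

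Of 35 interferon and nucleic acid sensing genes 34 were measured and 15 reached the 0 h floor, and 7 of those met the rule (Ddx58, Bst2, Tmem173, Dtx3l, Oas1a, Oas1g and Oasl1), beside 2.46% of all rows that reach the floor. Ddx58, the RNA sensor RIG-I, had 1387, 1398, 460.2 and 484 normalized counts before induction and 514, 537, 385 and 416 after 48 h. After 96 h, Ddx58 had 179, 181, 128 and 114. Replicates 1 and 2 were higher at 0 h, and the change to 48 h was -1.40 in that set and -0.24 in the other on the log2 scale. Bst2 (tetherin), which retains enveloped viruses at the cell surface, had 426, 364, 241 and 242 before induction and 354, 358, 181 and 199 after 48 h. After 96 h, Bst2 had 83.8, 73.6, 54 and 55.8. Its samples of 0 and 48 h overlapped across the sets. Within each set both 48 h samples were below both 0 h samples, with a change of -0.15 in replicates 1 and 2 and -0.34 in replicates 3 and 4 on the log2 scale. Tmem173, which encodes the adaptor STING, was at 258 ± 37.1 before induction, 96.1 ± 8.99 after 24 h, 38 ± 4.98 after 48 h and 5.2 ± 2.68 after 96 h, and it fell by 48 h with a log2 fold change of -2.73 (SE 0.21, adjusted p = 1.52e-12). Dtx3l, a ubiquitin ligase that works with PARP9, fell as well, by 3.49 on the log2 scale (SE 0.25, adjusted p = 2.32e-13). Oas1a, Oas1g and Oasl1, of the oligoadenylate synthetase family, had means of 184, 89.6 and 79.6 normalized counts before induction. Oas1a and Oas1g are near-identical copies, so that the split of reads between them is uncertain. Over the 23 genes of the list that were tested, 10 were called lower and 3 higher at 48 h, with a median of -0.82.

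Genes of glycine and one-carbon metabolism were represented by Amt, Dmgdh and Bhmt, 3 of 20 listed. Dmgdh, the mitochondrial dimethylglycine dehydrogenase, had 342, 319, 532 and 546 normalized counts before induction, 61.3, 68.8, 106 and 101 after 24 h and 32, 41.5, 25.5 and 26.8 after 48 h. After 96 h, Dmgdh had 1.06, 0, 1.26 and 1.89. Dmgdh fell by 48 h, with a log2 fold change of -3.73 (SE 0.29, adjusted p = 1.28e-12). Bhmt, which makes dimethylglycine from betaine, lies beside Dmgdh on chromosome 13 together with its paralog Bhmt2, and all 3 of these neighbors met the rule. Bhmt had means of 114 before induction, 47.2 after 24 h and 9.08 after 48 h, and it had at most 1 read in a 96 h sample, as did Bhmt2. The 0 h values of Bhmt were 41.4, 31.9, 216 and 168, with replicates 3 and 4 higher, and the change to 48 h was -1.56 in replicates 1 and 2 and -4.86 in replicates 3 and 4. Amt, the aminomethyltransferase of the glycine cleavage system, was at 1148 ± 121 before induction, 461 ± 58.3 after 48 h and 166 ± 42.9 after 96 h, with a log2 fold change of -1.32 (SE 0.11, adjusted p = 8.73e-12) at 48 h. Of the 19 tested genes on this list 5 were called lower and 0 higher at 48 h, and the median was -1.39. An unadjusted p of 0.05 in the upward direction was reached by 1 of them, and limma-voom also called 0 higher.

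Of 27 glutathione transferase and oxidative stress genes, Nqo1, Ephx2, Gstp2 and Aox3 met the rule, and 9 of the 24 tested were called lower and 3 higher at 48 h, with a median of -0.64. Nqo1, a quinone reductase and a target of NRF2, had 958, 1129, 1378 and 1279 normalized counts before induction, 485, 547, 386 and 375 after 24 h and 178, 145, 95.9 and 88.8 after 48 h. After 96 h, Nqo1 had 48.8, 44.2, 49 and 47.3. Nqo1 fell by 48 h, with a log2 fold change of -3.26 (SE 0.17, adjusted p = 7.97e-17), and its groups did not overlap. Ephx2, the soluble epoxide hydrolase, was at 1039 ± 399.9 before induction, 68.9 ± 28.8 after 24 h, 49.7 ± 8.54 after 48 h and 18.2 ± 5.44 after 96 h, so that it had fallen before 24 h. Gstp2 (log2 fold change -3.19) and Aox3 (-3.45) fell by 48 h. Within the sets, Aox3 changed by -2.68 in replicates 1 and 2 and by -4.22 in replicates 3 and 4. Reads of Gstp2 may be shared with its close paralog Gstp1.

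**Figure D5:**
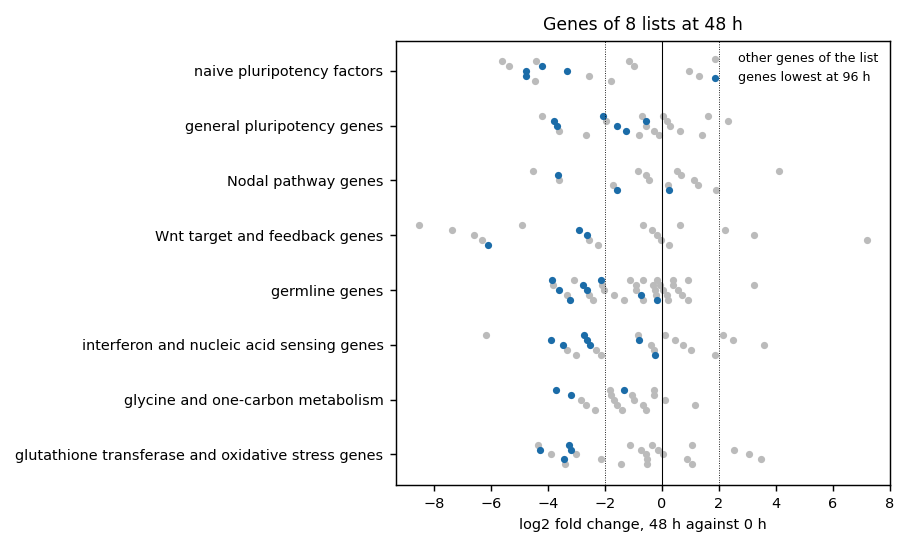
Log2 fold change at 48 h against 0 h (x axis) of the tested genes of 8 gene lists (rows); blue points are genes among the 232, gray points the other genes of each list, dotted lines mark a 4-fold change, and the vertical spread within a row is only for legibility. The genes that were lowest at 96 h spread from near no change at 48 h (Foxh1, Piwil2, Bst2) to a loss of over 4-fold (Nanog, Dazl, Oasl1).

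The genes nearest to the description of a loss after 48 h were those with the highest log2 fold change at 48 h against 0 h. Apoe, the apolipoprotein E gene, had 6072, 5145, 3739.8 and 3653 normalized counts before induction, 5114, 5704, 4301 and 4120.3 after 24 h and 6435, 6169, 4982 and 4644 after 48 h. After 96 h, Apoe had 1286, 1278, 904 and 963. The samples of these 3 times overlapped across the sets, and every 96 h sample was below them. Within each set both 48 h samples were above both 0 h samples, with a change of 0.17 in replicates 1 and 2 and 0.38 in replicates 3 and 4 on the log2 scale. At 8 h the level of Apoe was lower, with 3495, 3312, 3158 and 2908 normalized counts, all below those of 0, 24 and 48 h. The log2 fold change at 8 h against 0 h was -0.50 (SE 0.16, adjusted p = 0.0103), short of 4-fold. At 48 h the log2 fold change of Apoe was 0.28 (SE 0.16, adjusted p = 0.119), and 23.8% of the 0 h mean was left at 96 h. Apoc1, its neighbor in the apolipoprotein cluster on chromosome 7, had 422, 359, 538 and 544 before induction and 929, 884, 455 and 473 after 48 h. After 96 h, Apoc1 had 95.5, 101, 51.5 and 62.4. The sets went apart, with a change from 0 to 48 h of 1.22 in replicates 1 and 2 and -0.22 in replicates 3 and 4 on the log2 scale, while in both the 96 h level was far lower. Fstl1, a secreted follistatin-like glycoprotein, was at 1251 ± 284 before induction, 1248 ± 109 after 24 h, 1840.5 ± 38.2 after 48 h and 443 ± 60.5 after 96 h, with a log2 fold change of 0.58 (SE 0.13, adjusted p = 0.000158) at 48 h. Slc38a4, an amino acid transporter and imprinted gene, was at 1253 ± 404 before induction, 1737 ± 219.8 after 48 h and 374 ± 65.7 after 96 h. Its change from 0 to 48 h was 1.09 in replicates 1 and 2 and -0.04 in replicates 3 and 4 on the log2 scale. The others were 4930461G14Rik, Aldoc (aldolase C) and Mettl27, whose log2 fold changes by 48 h were 0.75, 0.48 and 0.28, and Foxh1. The sets went opposite ways for Mettl27, with 0.77 in replicates 1 and 2 and -0.20 in replicates 3 and 4, and for Foxh1, with -0.03 and 0.52. None of these differences passed the 4-fold threshold.

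The largest falls of the deposited value from 48 to 96 h were those of Tgfbi, 4930461G14Rik, Deptor, Foxh1, Aldoc, Calcoco2, Apoc1 and Dmgdh. Deptor, an inhibitor of mTOR, had 377, 419.9, 446 and 482 normalized counts before induction and 440.0, 447, 202 and 207 after 48 h. After 96 h, Deptor had 38.2, 32.6, 33.9 and 18. Replicates 3 and 4 had lost more by 48 h than replicates 1 and 2, with log2 differences from 0 h of -1.17 and 0.16, and both sets were low at 96 h. Tgfbi, an extracellular matrix protein induced by TGF-beta, had a single high time point. It had 40, 51, 97.5 and 98.2 before induction, 321, 318, 433 and 389.8 after 24 h and 65, 60.3, 91.5 and 78.4 after 48 h. After 96 h, Tgfbi had 5.31, 4.21, 1.26 and 2.84. Tgfbi rose by 24 h, with a log2 fold change of 2.43 (SE 0.34, adjusted p = 4.07e-07), and fell between 24 and 48 h, by 2.30 on the log2 scale (SE 0.34, adjusted p = 1.55e-06). Calcoco2 had 2673, 2924, 3499 and 3435 after 8 h and 219, 202, 192 and 165 after 48 h. After 96 h, Calcoco2 had 25.5, 30.5, 15.1 and 9.45. It was called higher at 8 h than at 0 h, with a log2 fold change of 2.87 (SE 0.60, adjusted p = 0.000228) that rests on 0 h values about which the sets disagree. From 0 to 48 h Calcoco2 changed by 0.54 in replicates 1 and 2 and by -2.81 in replicates 3 and 4.

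At the other end, Accsl, Cdx1, Mcf2, Jam2, Nr0b1 and Nanog had the lowest log2 fold changes at 48 h. Jam2, a junctional adhesion molecule, went from 4338 ± 1854 normalized counts before induction through 1188 ± 289 after 16 h to 140.1 ± 32.5 after 48 h and 56.8 ± 11.7 after 96 h. Jam2 fell by 48 h, with a log2 fold change of -4.86 (SE 0.29, adjusted p = 2.14e-15), or -4.07 in replicates 1 and 2 and -5.66 in replicates 3 and 4. Mcf2, a guanine nucleotide exchange factor, fell by 5.25 and Accsl by 6.54 on the log2 scale, and Accsl had at most 3 reads in each 96 h sample. Of the 10 genes with the highest normalized counts at 0 h (not corrected for gene length), those not yet described were Spp1, Dkc1, Mkrn1 and Mtf2. Spp1 (osteopontin), a secreted phosphoprotein, had 9616, 8312, 13077 and 12649 before induction, 18249.5, 17841, 24549.5 and 22829 after 4 h and 4470.0, 4356, 4465 and 4539 after 48 h. After 96 h, Spp1 had 1938, 1980.5, 1583 and 1697. The 4 h samples were above and the 48 h samples below all those at 0 h, with a log2 fold change of -1.27 (SE 0.13, adjusted p = 1.14e-09) at 48 h. Dkc1 (dyskerin, of the telomerase and snoRNA complexes), Mkrn1 (a RING finger ubiquitin ligase) and Mtf2 (a Polycomb-like subunit of PRC2) kept 75.4%, 77.7% and 87.6% of their 0 h means at 48 h and 29.6%, 24.8% and 32.9% at 96 h. At 48 h all 3 were still within 2-fold of the 0 h level.

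Some of the 232 genes lie close together in the genome (GENCODE M21 on GRCm38). Runs of at least 3 of them with no more than 1000000 bases between neighbors were found at 10 places, which were described after their positions were known and not tested. The longest run held 7 zinc finger genes within chr4:145510759-147702553 (Zfp990, Zfp980, Zfp600, Zfp981, Rex2, Zfp985 and Zfp534), out of 11 genes there that reach the 0 h floor. Their log2 fold changes at 48 h lay between -2.38 (Rex2) and -1.20 (Zfp990). Zfp990 went from 2029 ± 75.6 normalized counts before induction to 885 ± 116 after 48 h and 344 ± 36.1 after 96 h. These zinc finger genes are close copies of one another, so that reads may be split among them by the counting and their values are not independent. On chr6:122577792-122714633, Apobec1, Gdf3 and Nanog were 3 of 4 such genes, and on chr13:93616675-93752833, Bhmt, Bhmt2 and Dmgdh were 3 of 3. On chr7:19689481-19771016, Apoc1, Apoe and Bcam were 3 of 5, and Bcam, a laminin receptor, had a log2 fold change of -1.77 at 48 h. Chromosome 7 carried 31 of the 232 genes, 4.33% of its 716 genes that reach the floor, the highest share of any chromosome.

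Of 20 PrE, 8 trophoblast, 8 mesoderm and 8 neural markers, 4, 1, 1 and 3 reached the 0 h floor, and 0 met the rule. With so few genes above the floor, a count of 0 is near the 2.46% of all rows and says little. The trophoblast markers summed to between 272 and 472 normalized counts before induction, between 389 and 601 after 48 h and between 224 and 570 after 96 h, with 1 of the 8 without a read at 0 h. Those of mesoderm summed to between 102 and 455 before induction, between 87.6 and 142 after 48 h and between 237 and 387 after 96 h, so that every 96 h sample was above those of 48 h. Without a read were 1 of the 8 at 0 h and 2 at 48 and 96 h. Those of neural cells summed to between 667 and 876 before induction, between 162 and 241 after 48 h and between 586 and 661 after 96 h, with 1 of the 8 without a read at each of these times. The part of these cells in the results was not tested. The genes just inside the distance of 1.2 were Hal (1.201), Mapk4 (1.202) and Unc13b (1.208). Just outside it were Nod1 (1.199), Adgre5 (1.192) and Slc1a5 (1.188). Among those just inside the 0 h floor of 6 were Ak7 (6.16) and 4930461G14Rik (6.16). Outside it were Rlbp1 (5.98), Adcy1 (5.96) and Ddr2 (5.96).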

How the data were processed

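RNA-seq of 32 samples (8 time points with 4 replicates) was analysed from 1 table. Reads had been trimmed (cutadapt 2.7) and mapped by HISAT2 2.1.0 on GRCm38.p6, and the authors then made counts per gene with featureCounts (Subread 1.6.4) and normalised these with DESeq2; whether counting used the strand is not given in the sources used here. The deposited values are on a log2 scale, as variance-stabilised counts. These were inverted to normalized counts, and every value came out as whole reads after division by its sample's scaling factor.

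Genes with at least 10 normalized counts in at least 4 samples (15227) were fitted with limma 3.58.1 (R 4.3.3, trend) on log2(normalized count + 1), over all 8 time points. A gene was called at a Benjamini-Hochberg FDR below 0.1 and a 4-fold change. On data simulated for 48 h against 0 h (14616 genes), 200 of 200 changed genes were recovered, with 1 false call. The planted changes were well above the 4-fold threshold, in genes without low counts, and the replicates were drawn as independent. The simulation thus does not speak to calls near 4-fold, to low counts or to the replicate sets. Adjusted p-values in the text come from this fit, SD is over 4 replicates, and SE comes from this fit over all 32 samples. The fit treats the 4 replicates of a time point as independent. Replicates of the same set deviated together, so that these SE and adjusted p-values may be too small. Intervals were not given, since depth was similar among groups. Because the deposited values held counts in transformed form, limma-voom on the whole reads was added as an alternative. Alternatives included other pseudocounts, filters, scalings, thresholds, a replicate block, the replicate set as a term, the mean of each replicate set and leaving out replicates.

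The genes, the lists and the tests were chosen with earlier results of these data known, and list topics were chosen after the mean values in the study's supplement had been looked at. Genes were named by a fixed rule: the 10 most abundant at 0 h, the 8 with the largest fall from 48 to 96 h, the 8 highest and 6 lowest fold changes at 48 h, up to 4 per list (all where 5 or fewer), and those nearest the thresholds. Piwil2, Stk31, Rec8, Dmrt1, Tcl1, Pecam1, the Oas genes, Bhmt2, Nodal, the neighbors in runs along chromosomes and genes named in a count were chosen after their values were seen. Positions come from GENCODE M21, while the authors counted on GENCODE m18. A few genes that the rule would name are not reported here.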

Additional observations from a re-analysis of the deposited data

Results flagged for a closer look

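Of 208 groups of 4 samples (26 genes with values given in detail, at 8 time points), 1 held a sample far from the other 3. Replicate 2 at 0 h had 250.7 normalized counts of Ooep, while the others had 341 to 354, so that the gap was 0.875 of the whole range, above Dixon's limit for 4 samples. Chance flags about 1 in 20 groups, so that a single group is no pattern. The change of Ooep at 48 h against 0 h kept its direction without this sample's replicate number.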

How the results depend on the processing

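The number of genes that met the rule was 219 to 244 when a replicate number or a 96 h sample was left out, and 177 genes met it without each of the 4 replicate numbers. It was 130 with a distance of 1.5. Genes lower at 2 h than at 0 h numbered 1 with a pseudocount of 5, with a mean count of at least 50 or on the deposited scale, and between 1 and 4 without a replicate (1 without replicate 2, 4 without replicate 3 or 4). With a 2-fold threshold, genes lower and higher were 19 and 5 (2 h), 43 and 12 (8 h), 93 and 3 (24 h) and 167 and 0 (48 h against 0 h), and 104 and 1 between 24 and 48 h. Shares of all genes at this threshold are not given, and the rule itself favors lower calls. These counts thus show only how the calls depend on the threshold. All other alternatives kept each count within 1.5 times. Among them were TMM scaling, limma-voom, no filter, the replicate set as a term and the mean of each replicate set. Without a replicate, 94 to 102 genes were lower at 48 h than at 0 h, 35 to 47 at 24 h and 19 to 23 at 48 h against 24 h. Of single genes, Tgfbi at 48 h against 0 h was 0.13 and ranged from -0.058 to 0.28 when a replicate was left out, with the change of sign without replicate 1, and Mettl27 was 0.28 and ranged from 0.049 to 0.51. Same-numbered samples did not pair (lowest r -0.04, and mean r 0.196 both for the same number and for the other number of a set), and with the number as a replicate block 98 genes were lower at 48 h than at 0 h and 22 at 48 h against 24 h, as without it. Depth limits genes near 3 reads at 96 h, where a fold change cannot be given.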
